A study of Mus musculus with 6 samples.

Results

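Author cluster 3 is a group of 349 of the 5160 cell barcodes in a single-cell RNA-seq table of fetal mouse testicular germ cells, taken as every barcode to which the authors' deposited metadata gave the number 3 among 5 clusters (0 to 4) at resolution 0.2. The other clusters held 2210, 1863, 640 and 98 barcodes for the numbers 0, 1, 2 and 4. Cells were sorted by flow cytometry for the red fluorescent protein tdTomato from testes at embryonic day 14.5 and captured as single cells with 10x v2 chemistry. Both groups were male and of a mixed C57/B6 and 129 background: 3 libraries came from control mice, labelled wildtype, and 3 from mice with a conditional knockout (cKO) of Rb1, the gene of the retinoblastoma protein. The driver of the deletion and the number of animals in a library are not given in the sources used here, so p-values measure only the spread between libraries. Cluster 3 held 58, 40 and 25 barcodes in control replicates 1, 2 and 3, and 40, 92 and 94 in cKO replicates 1, 2 and 3. No barcode sequence of the cluster occurred in a second library.

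At this stage the male germ cells, called prospermatogonia, leave the mitotic cycle and later enter a long arrest inside the testis cords, where Sertoli cells surround them. They still carry transcripts of the pluripotency programme, such as Dppa5a, Dppa3 and Pou5f1, beside germ cell genes such as Dazl, which encodes an RNA-binding protein, and Ddx4, which encodes the helicase also called VASA. The retinoblastoma protein restrains the E2F transcription factors and thereby entry into S phase.

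Levels are given in CPM, the usual depth-scaled unit of RNA-seq, computed from unique molecular identifiers (UMIs) summed over the barcodes of a library. A log2 ratio between cluster 3 and all other barcodes was taken from means over the 6 libraries after adding 10 CPM, which understates the ratio of low genes. The clusters were drawn from the same genes, so these ratios describe what the clustering separated and carry no test. The 20 highest ratios among genes with at least 30 UMIs in the cluster, higher there in at least 5 of 6 libraries, are called the leading genes.

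A description of the cluster as led by Pf4, the chemokine platelet factor 4 of megakaryocytes and platelets, did not hold across its cells. All 357 Pf4 UMIs of the cluster came from 1 barcode of control replicate 2. Pf4 stood at 575 CPM in that library and at 0 in the other 5, where 3 counts would be 2.44 to 18.4 CPM. In the other clusters 16 barcodes held a Pf4 UMI, with at most 2 UMIs each. The Pf4 barcode had 11840 UMIs, 41 UMIs of the 10 megakaryocyte and platelet markers, 8 of them from the platelet chemokine gene Ppbp, and 1 UMI of the 14 germ cell markers. Without this barcode and another of control replicate 2 that had equally few germ cell UMIs, the log2 ratio of Pf4 was -0.03 in place of 3.37. The cluster is therefore described by Rpgrip1 and the genes that stood with it in every library.

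Rpgrip1, which encodes a ciliary scaffold protein that binds the GTPase regulator RPGR, led the genes shared by all libraries. Its level in cluster 3 was 176, 171 and 55.1 CPM in control replicates 1, 2 and 3, and 152, 118 and 278 CPM in cKO replicates 1, 2 and 3. In the other cells it was 17.8, 18.3 and 15.7 CPM in the same controls and 24.5, 17.5 and 43.9 CPM in the cKO libraries. Cluster 3 was higher in each library, lowest in control replicate 3 and highest in cKO replicate 3, and its lowest value lay above the highest value of the other cells. The mean was 158 ± 73.7 CPM (SD, n = 6) against 22.9 ± 10.7 CPM, a log2 ratio of 2.35. The remaining clusters lay close together, between 20.8 CPM in cluster 1 and 27.6 CPM in cluster 4. After each cell was thinned to 8000 UMIs, 67.9% of the cells of cluster 3 held a Rpgrip1 UMI against 16.3% of the others.

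Rpgrip1 spans chr14:52110704-52163546 on the plus strand of GRCm38, the build also called mm10 that the submitters' processing notes name. At its 3′ end it overlaps Supt16, a histone chaperone gene on the opposite strand, and Slc24a5 likewise overlaps Myef2. The strand setting of the authors' counting is not given in the sources used here, so reads of such a pair may be split uncertainly. Supt16 stood at 346 ± 31.8 CPM in cluster 3 against 235 ± 17.5 CPM, and Myef2 at 101 ± 7.32 against 47.8 ± 9.61 CPM (SD, n = 6 for each). Such an overlap was found for 2 of the 20 leading genes, or 10.0%, and for 14.2% of the 7544 located genes with at least 30 UMIs in the cluster.

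Sequence upstream of 3 leading genes is shown because these genes stood high together in every library. The runs come from the RefSeq windows of GRCm38.p6 and read 5′ to 3′ on the gene's own strand: for Rpgrip1 the 51 bases at chr14:52110653-52110703 (plus strand) before the first exon that GENCODE annotates, for Marf1 the 250 bases at chr16:14159275-14159524 (minus strand), and for Spry2 the 250 bases at chr14:105896820-105897069 (minus strand). Among 13 of the leading genes whose windows were checked for exons, Marf1 and Spry2 are the first by log2 ratio whose whole window holds no annotated exon, and the Marf1 window lies inside the longer gene of GENCODE. Capitals mark matches on either strand to CCAAT, the CCAAT box, or GGGCGG, the GC box, which may overlap each other.
Rpgrip1: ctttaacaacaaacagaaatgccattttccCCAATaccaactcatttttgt
Marf1: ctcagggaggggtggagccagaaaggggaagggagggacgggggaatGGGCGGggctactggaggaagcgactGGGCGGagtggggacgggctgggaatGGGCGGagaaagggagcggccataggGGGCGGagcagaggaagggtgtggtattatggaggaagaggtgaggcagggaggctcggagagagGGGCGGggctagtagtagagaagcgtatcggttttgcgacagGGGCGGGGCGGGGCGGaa
Spry2: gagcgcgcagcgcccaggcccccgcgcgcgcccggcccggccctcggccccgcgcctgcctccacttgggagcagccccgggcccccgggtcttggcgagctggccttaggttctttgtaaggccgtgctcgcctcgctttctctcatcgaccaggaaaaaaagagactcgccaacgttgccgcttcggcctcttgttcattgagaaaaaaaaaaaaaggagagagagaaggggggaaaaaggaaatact
The Rpgrip1 stretch held 1 CCAAT match and 0 GC boxes, the Marf1 window 0 and 8, and the Spry2 window 0 and 0, so these letters were not common to the 3 stretches. Over whole windows of 250 bases, at the most upstream RefSeq start, 16 genes were looked up: the 14 leading genes that are summed per cell below, Cbx3 and Actb. A window was found for 14 of them, all but Pfas and Actb. CCAAT was found in 6 of these 14 windows, or 42.9%, against 34.5% of 27025 windows of the same length, 1 for each gene symbol. GGGCGG was found in 9, or 64.3%, against 33.0%. TATAAA was found in 1 window and CACGTG in 2, against 13.0% and 6.04% of all windows. TGACGTCA and CCGGAAG were in 0 of the 14, against 1.60% and 7.07%. The 27025 windows were not limited to genes expressed in these cells, so these shares are not matched for expression. Whether the GC box share differs from that of expressed genes was not tested. A match is a string of letters in the window and does not show a bound site.

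Signalling and transport genes formed 1 part of the shared set. Slc39a1, a zinc importer of the ZIP family, stood at 67.4, 67.6 and 36.7 CPM in the control libraries and at 41.1, 37.0 and 40.7 CPM in the cKO libraries, against 4.32 to 7.48 CPM in the other cells. Notch2, a receptor of the Notch pathway, stood at 34.4, 56.4 and 18.4 CPM in the controls and at 36.0, 39.0 and 39.8 CPM in the cKO libraries, against 3.21 to 5.59 CPM. For both genes the 6 values of cluster 3 did not overlap those of the other cells. Slc24a5, a cation exchanger gene known from pigment cells, had a mean of 73.9 ± 15.9 CPM against 13.3 ± 3.58 CPM. Spry2, an inhibitor of receptor tyrosine kinase signalling, had 24.1 ± 4.16 against 3.46 ± 0.596 CPM (SD, n = 6 for each).

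Genes of chromatin, transcription and RNA formed another. Hsf2, a heat shock transcription factor with a role in germ cells, stood at 118, 101 and 91.9 CPM in the controls and at 110, 127 and 127 CPM in the cKO libraries. The other cells had 19.9 to 29.1 CPM, so the sets were well apart and the spread within cluster 3 was small. Hsf2 was found in 61.3% of thinned cells of the cluster and in 17.7% of the others. Cbx3, which encodes the heterochromatin protein HP1 gamma, was the most abundant of the leading genes, at 799, 810 and 833 CPM in the controls and 783, 746 and 994 CPM in the cKO libraries. The other cells ranged from 168 to 508 CPM, a wide range between libraries that stayed below every value of cluster 3. Marf1, an RNA regulator of the germ line, had 71.1 ± 12.2 against 16.2 ± 2.05 CPM. Alkbh5, an RNA demethylase that removes N6-methyladenosine (m6A), had 154 ± 17.0 against 55.6 ± 7.71 CPM, and Rbm15, an adaptor of the m6A methyltransferase, had 61.4 ± 19.7 against 20.9 ± 1.59 CPM. Paip1, a partner of poly(A)-binding protein in translation, had 60.8 ± 10.9 against 19.1 ± 3.15 CPM, and Rrn3, an initiation factor of RNA polymerase I, had 82.6 ± 15.5 against 30.1 ± 3.71 CPM (SD, n = 6 for each).

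Metabolic and replication genes completed it. Amt, the aminomethyltransferase of the glycine cleavage system, had 41.3 ± 20.2 CPM against 6.76 ± 2.17 CPM, and cluster 4 had 20.3 CPM. Pfas, an enzyme of purine synthesis, had 129 ± 35.9 against 43.1 ± 5.97 CPM. Mcmbp, a binding protein of the MCM helicase, had 194 ± 39.4 against 72.3 ± 8.17 CPM (SD, n = 6 for each). In the plot of leading genes by library, control replicate 3 had the lowest of the 6 cluster 3 values for 12 of the 15 leading genes that no single barcode dominated, Marf1, Alkbh5 and Cbx3 being the exceptions. Its cluster 3 sum held only 163299 UMIs, and its values for Notch2, Amt and Spry2 rest on 3 UMIs each. How often this library was lowest over all genes was not counted, so the 12 of 15 may not be particular to these genes.

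**Figure D1:**
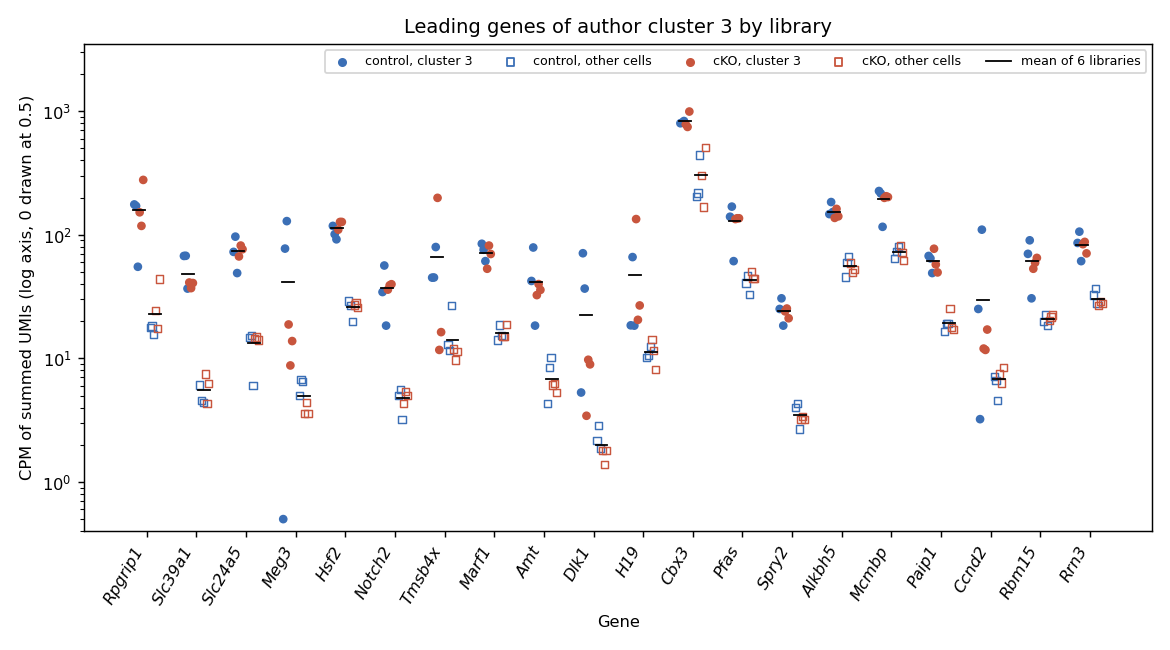
Level of the 20 leading genes in each library, as CPM of summed UMIs on a log axis, for cluster 3 (filled circles) and all other barcodes (open squares), with the mean of the 6 libraries as a line. Rpgrip1, Hsf2, Cbx3 and most others separate in every library, whereas Meg3, Tmsb4x, Dlk1, H19 and Ccnd2 spread widely within cluster 3.

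In most of the gene families looked up, a single member had a log2 ratio above 1. These families were chosen after the values of the leading genes had been seen. Among 3 HP1 genes, Cbx3 alone had a log2 ratio above 1, at 1.40, while Cbx1 had 0.02 and Cbx5 0.26. Of the heat shock factor genes, Hsf1 had 0.09 beside 1.76 for Hsf2, and of the 4 Notch receptor genes Notch1 had 0.24, Notch3 0.07 and Notch4 0.14 beside 1.68 for Notch2. The 6 MCM helicase subunit genes Mcm2 to Mcm7 lay between -0.01 and 0.12, whereas their partner Mcmbp had 1.31. In purine synthesis Pfas had 1.39, and the other 10 genes lay between -0.13 and 0.07. The glycine cleavage partners of Amt, namely Gldc, Gcsh and Dld, had 0.13, -0.09 and -0.13. Of 14 m6A genes, the 2 above 1 were the leading genes Alkbh5 at 1.32 and Rbm15 at 1.21, for which the family was looked up. The methyltransferase adaptor Wtap had 0.90 and the reader Ythdf2 0.55. These 4 of the 14 genes were higher in all 6 libraries, a share that was not counted over all genes. The catalytic subunits Mettl3 and Mettl14 had -0.01 and -0.04, and the other demethylase, Fto, had -0.07.

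The 2 cytoplasmic actins also parted. Actb, which encodes beta-actin, was just outside the 20 leading genes with a log2 ratio of 1.20, next to Rrn3 with 1.21 just inside. It had 2167 ± 371 CPM in cluster 3 against 935 ± 69.6 CPM, while Actg1, which encodes gamma-actin, had 1065 ± 110 against 1038 ± 75.5 CPM (SD, n = 6). Other genes with a log2 ratio of means above 1 that were higher in all 6 libraries included Lgr4, a receptor of R-spondins, at 81.6 ± 15.0 against 30.4 ± 2.12 CPM, Gnb1, a G protein beta subunit, at 337 ± 56.3 against 143 ± 19.8 CPM, and Insig1, a regulator of sterol synthesis, at 86.8 ± 23.6 against 33.1 ± 6.12 CPM (SD, n = 6 for each).

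Outside this set the transcriptome of the cluster lay close to that of the other cells. Of 7764 genes with at least 30 UMIs in the cluster, 36, or 0.464%, had a log2 ratio above 1, 0 had one below -1, and the median was 0. This filter keeps genes raised in the cluster and can drop genes lowered there, so the 36 and the 0 are not an even comparison. Among genes with at least 50 CPM in the other cells and lower in at least 5 of 6 libraries, the lowest log2 ratio was -0.69. Of the 36 genes, 29 were higher in all 6 libraries. Genes higher in at least 5 of 6 libraries made up 12.2% of the 7764 and genes lower in at least 5 made up 14.5%. The 10 genes with the lowest log2 ratios differed little. Tmem245, a membrane protein gene, had the lowest log2 ratio, -0.69, but its level in the other cells ran from 22.2 to 147 CPM between libraries. Kat7, a histone acetyltransferase gene, had -0.35, and Cinp and the linker histone gene Hist1h1e had -0.33. The mitotic genes Plk1, a kinase, and Cenpe, a kinetochore motor, both had -0.31, as did Dppa4, a pluripotency gene. Dppa4 was below the other cells in 6 of 6 libraries at 168 ± 20.3 against 210 ± 34.3 CPM (SD, n = 6). Some of these genes were lower still in another cluster. Plk1 had 28.4 CPM in cluster 0 against 49.6 in cluster 3, and Cenpe 40.0 against 57.9. Hist1h1e had 18.6 CPM in cluster 1 against 51.8, and Dppa4 had 165 CPM in cluster 4. Tmem245, Kat7 and Cinp were lowest in cluster 3.

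Germ cell identity was shared with the other clusters. The 14 germ cell markers summed to 9086 ± 610 CPM in cluster 3 and 9288 ± 420 CPM in the other cells (SD, n = 6), a log2 ratio of -0.03. Dazl had 1125 ± 146 against 1179 ± 140 CPM and Ddx4 had 178 ± 35.1 against 179 ± 25.6 CPM. At least 1 Ddx4 or Dazl UMI was found in 338 of the 349 barcodes. Cell cycle sums lay within the range of the other clusters: the 42 S phase genes had 6468 CPM, between 5050 in cluster 1 and 7357 in cluster 0, and the 52 G2/M genes had 9217 CPM, between 8282 in cluster 0 and 11260 in cluster 1. The G2/M sum was below that of all other cells in 6 of 6 libraries, by a log2 ratio of -0.07. Pluripotency genes, mitochondrially encoded mRNAs, ribosomal protein genes and nuclear oxidative phosphorylation genes had log2 ratios of their sums between -0.02 and 0. The immediate early and heat shock list was mixed: of 11 members with at least 30 UMIs, 4 were higher and 3 lower in at least 5 of 6 libraries, with a median log2 ratio of 0. Its sum was lower in 6 of 6 libraries, following its most abundant members, with Hsp90aa1 at 5405 ± 369 against 5734 ± 197 CPM and Hspa8 at 3084 ± 217 against 3341 ± 150 CPM. Ier2, an immediate early gene, was higher in 6 of 6, at 87.6 ± 3.43 against 76.8 ± 6.62 CPM. The actin sum was higher in 6 of 6 libraries, at 7451 ± 579 against 6037 ± 239 CPM, and Actb supplied most of that difference. Cdkn1b, which encodes the cell cycle inhibitor p27, had 13.0 ± 3.29 against 5.81 ± 1.26 CPM and was higher in 6 of 6 libraries, while Cdkn1a and Cdkn2a had log2 ratios of 0.06 and -0.01 (SD, n = 6 for each).

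Interstitial stromal transcripts in the cluster were concentrated in a few barcodes. The 10 interstitial stromal markers summed to 82.2 ± 121 CPM (SD, n = 6; 18.5 to 325) against 2.77 to 5.81 CPM in the other cells. Of the 184 stromal UMIs in the cluster, 163 lay in 7 barcodes with at least 10 each, and 0 barcodes of the other clusters reached that number. These barcodes were spread over all 6 libraries. A barcode of control replicate 2 with 18533 UMIs held 44 stromal UMIs and 1 germ cell marker UMI, together with 39 UMIs of Dlk1, 46 of Meg3, 37 of H19 and 35 of Ambp, which encodes a plasma protein. The other 6 had 104 to 168 germ cell marker UMIs beside 10 to 48 stromal UMIs. Sertoli transcripts were not concentrated there: of 385 UMIs of the Sertoli list in the cluster, these 7 barcodes held 0 to 10 each. None of these barcodes was called a doublet by Scrublet, which marked 9 barcodes of the cluster, or 2.58%, and 2.93% of all barcodes.

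Single barcodes weighed heavily on 5 genes that the ranking placed among the leaders. A single barcode supplied 43.4% of the Meg3 UMIs, 50.6% of those of Dlk1, 37.2% of those of Tmsb4x, 34.2% of those of H19 and 13.9% of those of Ccnd2. For Meg3 and Dlk1 this was the stromal barcode of control replicate 2. For Tmsb4x and H19 it was another barcode, of cKO replicate 1, with 23471 UMIs and 153 germ cell marker UMIs, and for Ccnd2 a barcode of control replicate 3 with 174 germ cell marker UMIs. For the other 15 leading genes no barcode supplied more than 3.19%. Meg3, an imprinted noncoding RNA, stood at 0, 77.3 and 129 CPM in control replicates 1, 2 and 3, where 3 counts would be 3.97 CPM in the first, and at 18.8, 8.76 and 13.8 CPM in the cKO libraries. Without the 2 barcodes poor in germ cell UMIs, the log2 ratio of Meg3 was 1.38 in place of 1.77, that of Dlk1 0.88 in place of 1.44, and that of Rpgrip1 2.36 in place of 2.35. Markers of other somatic types were mostly low, and several of their sums had higher means than in the other cells. Fetal Leydig markers had 1.19 against 1.13 CPM, with Cyp17a1, Hsd3b1, Insl3, Nr5a1, Lhcgr and Ren1 at 0. Sertoli markers had 92.8 ± 34.9 (58.2 to 141) against 64.5 ± 6.38 CPM, of which Dmrt1, a gene germ cells express too, made up 57.9 CPM. Peritubular myoid markers had 7.40 ± 10.4 CPM (0 to 27.4) against 1.31 ± 0.369 CPM (0.860 to 1.77), with Myh11, Cnn1 and Actg2 at 0. Macrophage markers had 0 to 14.5 against 1.25 to 8.33 CPM, with Csf1r, Adgre1 and Mrc1 at 0. Endothelial markers had 49.0 to 118 against 47.6 to 77.5 CPM, and erythroid markers 1.71 to 42.3 against 6.51 to 33.5 CPM. Mesonephric or surface epithelial markers had 355 to 522 against 363 to 478 CPM. Single genes weighed on 2 of these sums: Pecam1 had a mean of 38.0 against 38.4 CPM and Epcam 423 against 429 CPM. The part of such RNA in the levels of the 15 other leading genes was not tested beyond leaving out the 2 barcodes.

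**Figure D2:**
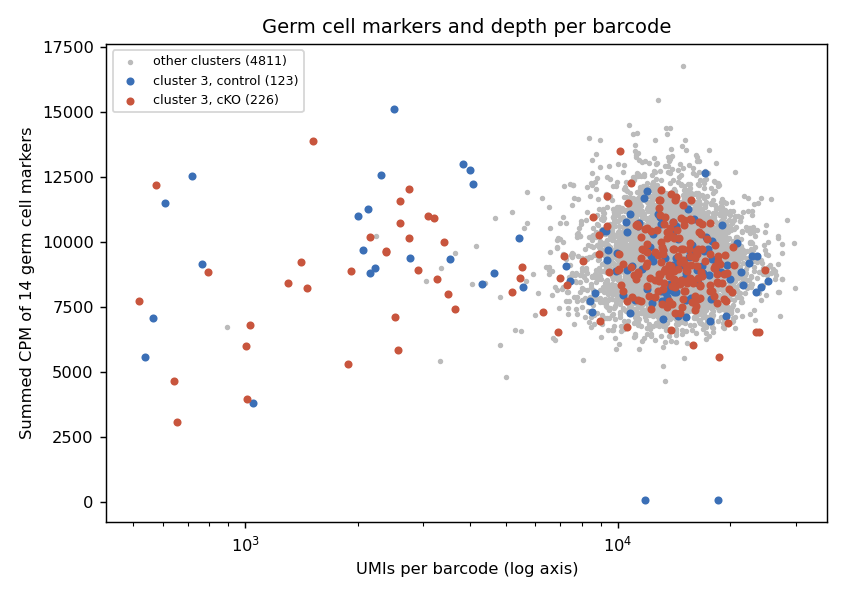
Summed CPM of the 14 germ cell markers against UMIs per barcode (log axis) for cluster 3 in control (blue) and cKO (red) libraries and for the other clusters (grey). The 2 barcodes at the bottom, at 54.0 and 84.5 CPM, are those of control replicate 2, and the barcodes at the left show the shallow tail of the cluster.

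Depth per cell set the cluster apart at its lower end but not at its centre. The median was 13568 UMIs in cluster 3 and 14175, 13496, 15518 and 12328 UMIs in clusters 0, 1, 2 and 4. Of the 40 barcodes with under 3000 UMIs in the whole table, 38 were in cluster 3, which is 10.9% of its barcodes against 0.0416% of the others. Under 8000 UMIs there were 62 of its 349 barcodes, or 17.8%, and 96 of the other 4811. The mitochondrial share was alike, with a median of 3.85% in cluster 3 and 3.73% to 3.92% in the other clusters. Thinned to 8000 UMIs, cells of cluster 3 in control replicate 1 had a median of 2540 genes, against 2536 in the others, and in cKO replicate 3 the medians were 2525 and 2528.

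**Figure D3:**
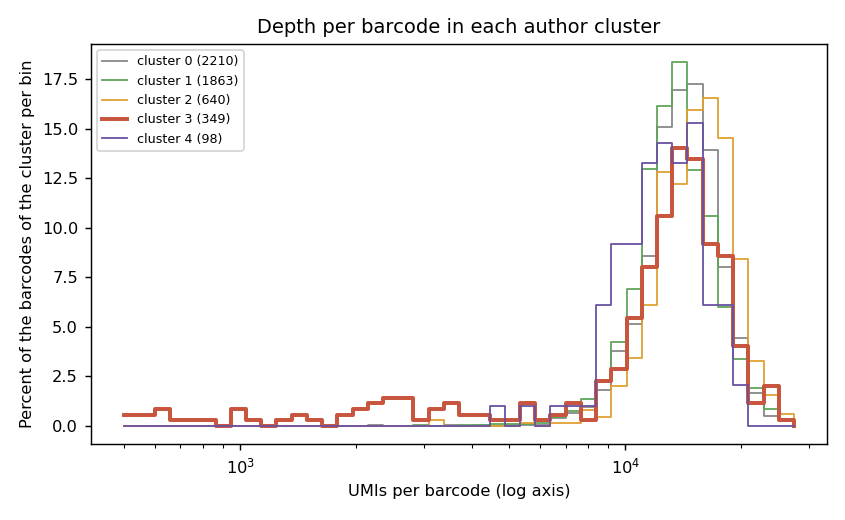
Distribution of UMIs per barcode (log axis) in each author cluster, as the percent of the barcodes of the cluster in each bin. Cluster 3 peaks with the others and has a tail under 3000 UMIs that holds 38 of the 40 such barcodes of the table.

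The 15 leading genes that no single barcode dominated were higher in cluster 3 than in the other cells both among barcodes with at least 8000 UMIs and among those with fewer. These genes were chosen for their level in cluster 3, and 287 of its 349 barcodes had at least 8000 UMIs. The agreement among the deeper barcodes therefore follows largely from that choice. The 5 dominated genes were higher among the deeper barcodes. Among the shallower ones Dlk1 (0 against 4.69 CPM), Ccnd2 (0 against 0) and Tmsb4x (32.5 against 32.8) were not. Meg3 and H19 were higher there by little, at 10.8 against 9.38 CPM each. The cluster had 62 shallower barcodes, so these values rest on few UMIs and cannot set the 5 genes apart from the 15. Over all libraries pooled, Rpgrip1 had 181 CPM in barcodes of cluster 3 with at least 8000 UMIs, against 23.7 CPM in other cells of that depth, and 211 CPM in barcodes with fewer UMIs, against 39.1 CPM. Hsf2 had 115 against 25.3 CPM in the deeper barcodes and 184 against 36.0 CPM in the shallower ones. For Cbx3 the values were 833 against 338 CPM and 1039 against 419 CPM. When the other cells were limited to those no deeper than the 75th percentile of cluster 3 in their library, the log2 ratios of Rpgrip1, Hsf2 and Cbx3 were 2.30, 1.75 and 1.40.

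A sum over 14 leading genes showed how continuous the cluster was with its neighbours. It left out Cbx3 for its abundance and the 5 genes that single barcodes dominated, and it was counted in each of the 5002 cells with at least 8000 UMIs after thinning to that number. The median was 10 UMIs in the 287 cells of cluster 3, with quartiles of 8 and 13, and 2 UMIs in each other cluster. A sum of 10 or more was reached by 57.1% of the cells of cluster 3 and by 1.01%, 0.880%, 0.633% and 5.32% of those of clusters 0, 1, 2 and 4. Because these genes were chosen from the same cells, the gap is a description of the cluster.

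Over the 30 sums of 5 clusters in 6 libraries, the genes whose level most resembled that of Rpgrip1 were Actb (Pearson r of 0.85), Slc24a5 and Cbx3 (0.82 each), and Pfas, Pdcd4 and Insig1 (0.80 each), among 3083 genes with at least 50 CPM in a cluster. Hsf2 had 0.79 and Alkbh5 0.77. The sums share libraries, and the likeness is that of clusters drawn on these genes. For Pf4 the closest were Gtf2h3 at 0.56 and Mybl2 at 0.54 among the same 3083 genes. Genes below 50 CPM were not ranked: all 65 UMIs of the noncoding RNA Gm26870 and all 8 of Ppbp in cluster 3 came from the Pf4 barcode.

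Control replicate 3 held few barcodes of the cluster. The share was 7.40%, 9.30% and 1.85% in control replicates 1, 2 and 3, and 8.33%, 9.70% and 8.08% in cKO replicates 1, 2 and 3. The exact 95% binomial (Clopper-Pearson) interval was 1.20% to 2.71% in control replicate 3, and the lowest bound of the other 5 libraries was 5.67%. These intervals cover counting error only. In the same library clusters 0, 1, 2 and 4 took 44.8%, 38.3%, 13.1% and 1.99%, each within 2 percentage points of another library. The mean share was 6.18% ± 3.87 in the controls and 8.70% ± 0.876 in the cKO libraries (SD, n = 3 each), a difference of 2.52 percentage points with a two-sided exact permutation p of 0.400. The smallest p that 3 against 3 libraries allow is 0.1. Without control replicate 3 the control mean was 8.35% and the difference 0.354 percentage points (exact permutation p of 0.800). So the difference between genotypes was within the spread of the libraries, and 1 library supplied most of it.

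The barcodes of control replicate 3 were also shallow. Their median was 4654 UMIs against 12787 in the other cells of that library, a ratio of 0.364, while the ratio lay between 0.895 and 0.973 in the other 5 libraries. Of the 25 barcodes, 16 had under 8000 UMIs. Among barcodes with at least 8000 UMIs the share was 0.702% (9 of 1282, interval 0.321% to 1.33%) in control replicate 3 and 7.01% to 8.47% in the other libraries, so the gap was wider among deep barcodes. The median depth of the cluster was 11320 ± 5883 UMIs in the controls and 14109 ± 1743 in the cKO libraries (SD, n = 3 each). The exact permutation test gave p = 0.600, and the sign turned without control replicate 3, to a difference of -543 UMIs.

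Cells with high sums of the leading genes were also rare in control replicate 3 when counted over all clusters. A sum of 10 or more per 8000 UMIs was reached by 3 of 1282 cells there, or 0.234%, and by 4.42% to 7.06% of the cells in the other libraries. Of these cells, 1 of 3 was in cluster 3 in control replicate 3. It was 30 of 34 and 24 of 30 in control replicates 1 and 2, and 15 of 24, 41 of 56 and 53 of 64 in cKO replicates 1, 2 and 3. The genes were chosen for their level in cluster 3, so this contrast largely restates the low share of the cluster. Its 9 deep cells of cluster 3 had a median sum of 6, against 9 to 12.5 in the other libraries, and its other cells had a median of 2, as in 4 of the remaining 5 libraries. With 9 such cells the value of 6 is imprecise. What sets control replicate 3 apart was not tested: the labels give no batch or date.

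**Figure D4:**
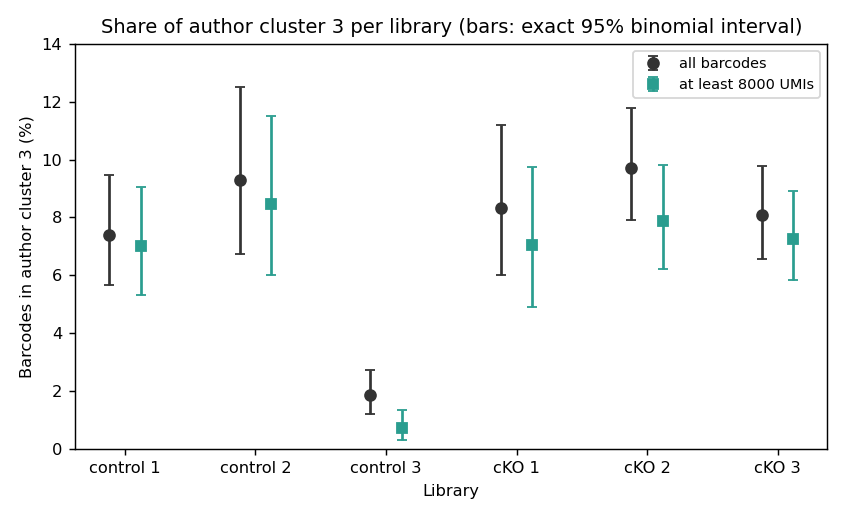
Share of barcodes in author cluster 3 in each library, over all barcodes (circles) and over barcodes with at least 8000 UMIs (squares), with exact 95% binomial intervals. Control replicate 3, at 1.85% and 0.702%, lies below the intervals of the other 5 libraries.

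**Figure D5:**
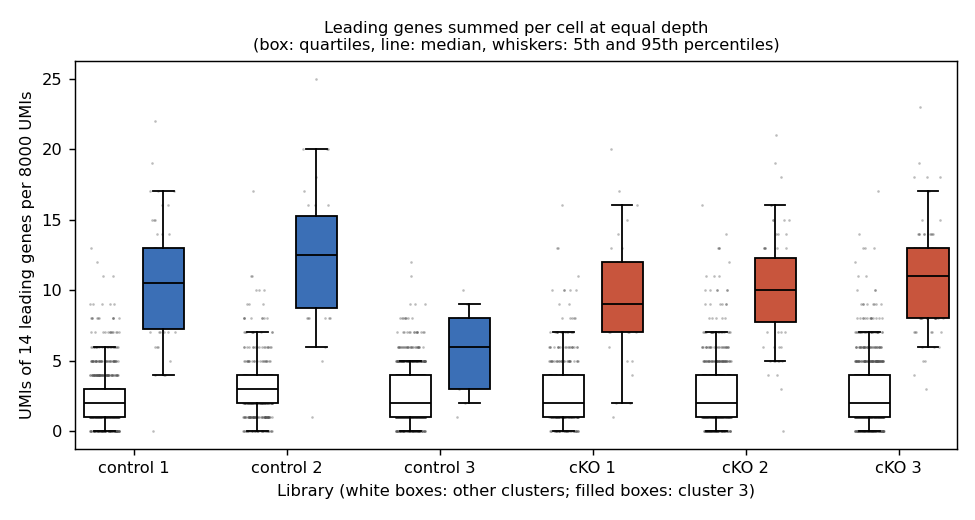
UMIs of 14 leading genes per cell thinned to 8000 UMIs, for cluster 3 (filled boxes) and other clusters (white boxes) in each library; boxes are quartiles with the median, whiskers the 5th and 95th percentiles, points single cells. Cluster 3 has medians of 9 to 12.5 in 5 libraries and 6 in control replicate 3, against 2 or 3 in the other cells.

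Rb1 itself was too low to check the genotype within the cluster, with 29 UMIs in all. In the other cells it stood at 10.5, 8.74 and 6.93 CPM in control replicates 1, 2 and 3, and at 3.46, 3.63 and 3.21 CPM in cKO replicates 1, 2 and 3, so the groups did not overlap there. In cluster 3 it was 7.93, 9.66 and 0 CPM in the controls and 3.43, 4.87 and 8.13 CPM in the cKO libraries, which did overlap. A count of 0 in control replicate 3 allows up to 18.4 CPM. Rb1 overlaps Rcbtb2 on the opposite strand at its 3′ end, and which exons were deleted is not given in the sources used here.

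No gene passed the test of cKO against control within cluster 3. The edgeR quasi-likelihood test on summed UMIs called 0 of 5998 genes at an adjusted p (Benjamini-Hochberg) under 0.05, 0% of those tested, and 195 had an unadjusted p under 0.05. DESeq2 also called 0, with 44 genes at an unadjusted p under 0.05. The cluster sums held 163299 UMIs in control replicate 3 and 583724 to 1229899 in the other libraries, which limits the precision of that library. The gene with the smallest p was Smc1b, a meiotic cohesin subunit, at 151, 182 and 151 CPM (TMM-normalised) in control replicates 1, 2 and 3 and at 241, 259 and 248 CPM in cKO replicates 1, 2 and 3. The groups did not overlap, but at a log2 fold change of 0.61 ± 0.13 (SE) the adjusted p in edgeR was 0.947. The next 4 by p did not pass either: Rpl27, a ribosomal protein gene (-0.41), Cluap1, a ciliary transport gene (1.03), Rad51ap1, a recombination gene (0.78), and Nutf2, a nuclear transport gene (-0.78).

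The leading genes of the cluster did not pass between genotypes. Of the 20, 19 were measured well enough to be tested, 0 were called, and their log2 fold changes had a median of -0.09 beside 0 for all genes tested. Rpgrip1 had 138 ± 68.3 normalised CPM in the controls and 190 ± 93.6 in the cKO libraries (SD, n = 3 each), a log2 fold change of 0.29 ± 0.51 (SE). Hsf2 had 0.19 ± 0.16 and Cbx3 0.05 ± 0.12. Of the pathway lists, 0 of 42 S phase genes and 0 of 49 tested G2/M genes were called, with medians of 0.18 and 0.02. The 11 tested meiosis genes had a median of 0.37, and the 11 tested genes of male germ cell fate had one of 0.15, again with 0 called in each.

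The effect of the knockout was not found to differ between cluster 3 and the other cells. The test of that difference, an interaction term in edgeR with the library as a factor, called 0 of 10452 genes, 0% of those tested, with 475 at an unadjusted p under 0.05, and DESeq2 called 0 with 120. The smallest adjusted p was 0.236, for Ptn, a stromal growth factor gene. It had 23 UMIs in the cluster, 10 of them in a single barcode, and stood at 7.99, 7.93 and 58.5 normalised CPM in control libraries, against 3.30, 0 and 0 in cKO libraries. H1f0, a linker histone gene, had 22.6, 61.9 and 23.4 normalised CPM in control libraries, against 18.2, 18.8 and 11.8 in cKO libraries, and 21 of its 104 UMIs came from 1 barcode. Values of the remaining 3 smallest p, those of RP23-4H17.3, Smco4 and Jun, all had an edgeR adjusted p of 0.241. Jun, an immediate early gene, had an interaction log2 fold change of -1.74 ± 0.45 (SE).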

How the data were processed

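Single-cell RNA-seq counts of 6 libraries were analysed. The deposited table holds UMI counts per gene symbol (27998) and barcode (5160), made with Cell Ranger and Seurat 3.0 on mm10, per the submitters' processing notes. Filters, annotation and the settings behind the deposited cluster numbers are not given in the sources used here. Counts of each library were summed over cluster 3 and over the other barcodes. Cluster 3 sums ran from 163299 to 1229899 UMIs, and those of the other barcodes from 6977547 to 17159853. Of all barcodes, 9 sequences occurred in more than 1 library.

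Between genotypes, edgeR 4.0.16 (TMM, filter on low counts, quasi-likelihood) was fitted in R 4.3.3 to the groups in the labels, with Benjamini-Hochberg adjustment over all genes tested. DESeq2 1.42.0 was an alternative. Shares and depths were compared by exact two-sided permutation over libraries, with all labelings enumerated. The binomial intervals were computed with scipy 1.17.1. Doublets were called per library with Scrublet in scanpy 1.11.5 and kept. The scripts were tested on simulated data.

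Named genes were the 20 highest by log2 ratio among genes with at least 30 UMIs in the cluster, and the 10 lowest among genes with at least 50 CPM elsewhere, each with the same direction in at least 5 of 6 libraries, plus Pf4, Rpgrip1, Rb1, the abundant members of each list, and for each genotype test the 5 smallest p, since none passed; some genes that the rule names are not reported here. The 15 gene lists, 10 marker lists and members were chosen with earlier results of these data known. Alternatives were each library left out, other scalings, filters and depths, and doublets removed. Gene positions are from GENCODE and windows from RefSeq.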

Additional observations from a re-analysis of the deposited data

How the results depend on the processing

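The share and depth comparisons could not reach 0.05 in any alternative, since the smallest p was 0.1 over libraries and 0.25 over pairs, so their p-values say nothing about stability. Leaving out 1 library moved the share difference (cKO minus control) between 0.354 and 4.08 percentage points and the depth difference between -543 UMIs (without control replicate 3, exact permutation p of 0.800) and 5023 UMIs. Within cluster 3, genes called between genotypes numbered 0 in edgeR and 0 to 3 with 1 library left out: 3 without control replicate 1 (Dlk1, Meg3 and Rhox6) and 2 without control replicate 3. With no filter on low counts 17 were called, Smc1b among them. Deviations of same-numbered libraries correlated at -0.06, 0.10 and 0.06, and those of differently numbered ones at -0.1 to 0.05. All are near 0, so they do not decide whether replicate numbers pair the libraries. With the replicate block 1 gene (Hes6) was called, and the share difference stayed at 2.52 percentage points (exact sign-flip permutation p of 0.25). For the interaction, leaving out 1 library gave 0 to 20 calls, with 20 without control replicate 1 and 1 each without control replicate 2, cKO replicate 1 and cKO replicate 3. Removing Scrublet doublets gave 1 (Smco4), and keeping only barcodes with at least 8000 UMIs, an alternative added after seeing the data, gave 4 (H1f0, Ptn, RP23-4H17.3 and Spp1). The causes were not tested. A pseudocount of 50 CPM lowered the log2 ratio of Rpgrip1 to 1.51. Removing the 2 barcodes poor in germ cell UMIs was also added after seeing the data. Control replicate 3, with 25 barcodes, limits every comparison between genotypes.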
